A study of Mus musculus with 2 samples.

Results

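The circadian clock genes are 10 genes that make up, or report on, the daily transcriptional oscillator of mouse liver: Arntl, Clock, Npas2, Per1, Per2, Per3, Cry1, Cry2, Dbp and Nr1d1. They were chosen by name, and a GATA4 occupied site was assigned to one of them when the midpoint of the site lay in the gene body or within 50 kb of it (mm9, genes of GENCODE M1). Of the 4409 sites common to both peak callers, 5 were assigned in this way, to 4 of the 10 genes. GATA4 ChIP-seq had been performed on whole liver of C57BL/6 x Sv129 mice with the C-20 antibody, and liver DNA taken without antibody (input) from the same strain served as background. The age is 2 to 3 months by the labels, and the study's methods give a slightly later range. The livers were intact, so every liver cell type contributed chromatin, and the cell type in which a site was occupied cannot be told apart. The authors made 2 biological replicates and called peaks on the pooled reads as well, and the labels list 1 ChIP sample and 1 input sample. No value below therefore carries a replicate error, no test was run, and the depth behind a single site is unknown. The hour of the day at which the livers were taken is not given in the sources used here.

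The clock of a liver cell is a feedback loop of transcription. ARNTL (BMAL1) pairs with CLOCK or its relative NPAS2 and activates genes through E-boxes, among them the Per and Cry genes, whose proteins return to the nucleus and repress the pair. A linked loop runs through the nuclear receptor NR1D1 (REV-ERB alpha), which represses Arntl, and the output factor DBP, with its relatives TEF and HLF, carries the rhythm to genes with D-boxes, many of them in liver metabolism. GATA4 is a zinc finger factor that binds the sequence WGATAR, in which W is A or T and R is A or G.

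A GATA4 common site lay within reach of Per1, Per2, Dbp and Nr1d1, and none lay within reach of Arntl, Clock, Npas2, Per3, Cry1 or Cry2. Per1 had 2 sites and the other 3 genes had 1 each. The share was 40% of the clock genes, beside 27.7% of the 22380 protein-coding genes under the same rule, a share that would give 2.8 of 10 genes. With so few genes, 1 gene more or less moves the share by 10 percentage points, so the shares lay little more than 1 gene apart. Long genes offer more room, and the clock genes had a median length of 42.2 kb against 15.4 kb over all protein-coding genes. Among the 15306 protein-coding genes with a length in the range of the clock genes (5.1 to 169.5 kb), 31.2% had a site. Per megabase of gene body and flanks, there were 3.19 pairs of a site and a gene for the clock genes and 2.89 for all protein-coding genes.

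The reach of 50 kb decided part of the count. Within 10 kb of the gene body only Per2 and Nr1d1 had a site, 2 of 10 beside 13.7% of protein-coding genes. In the gene body itself only Per2 had one, 1 of 10 beside 7.67%. Only Per1 had 2 or more sites within 50 kb, again 1 of 10, beside 9.15%. The sites of Dbp and Per1 entered at 12.6 and 27.4 kb, the latter being the outermost gene inside the limit. The nearest gene outside it was Per3, with a site 89.1 kb away.

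**Figure D1:**
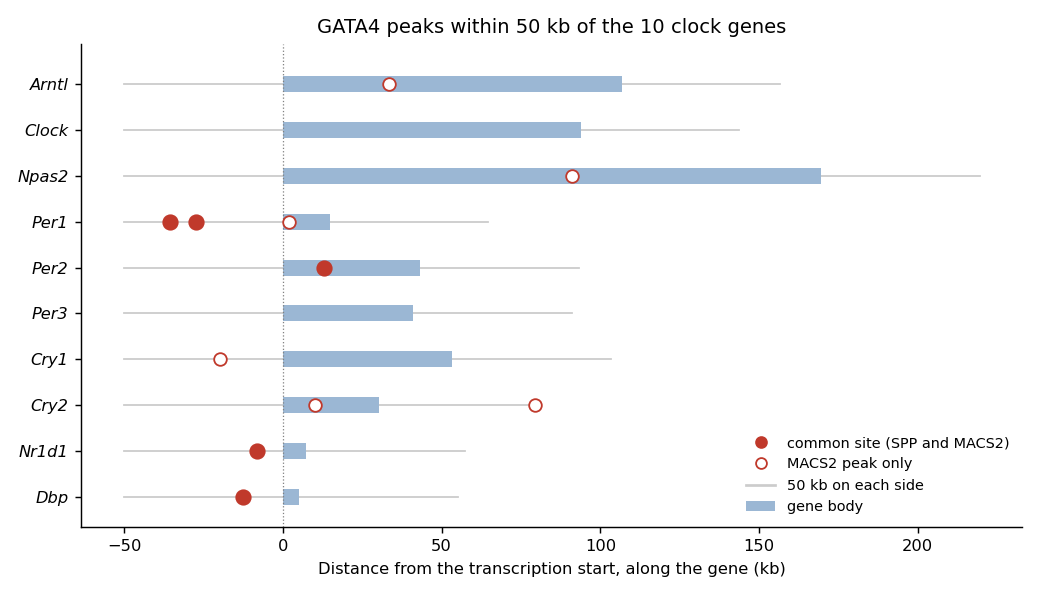
Position of GATA4 peaks around the 10 clock genes, 1 row per gene, with the distance from the transcription start along the gene in kb on the x axis. The blue bar is the gene body, the grey line the 50 kb on each side, filled circles are common sites and open circles are MACS2 peaks without a common site. The filled circles lie at Per1 (2 sites upstream), Per2 (in the body), Dbp and Nr1d1 (upstream), and Clock and Per3 have no circle.

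**Figure D2:**
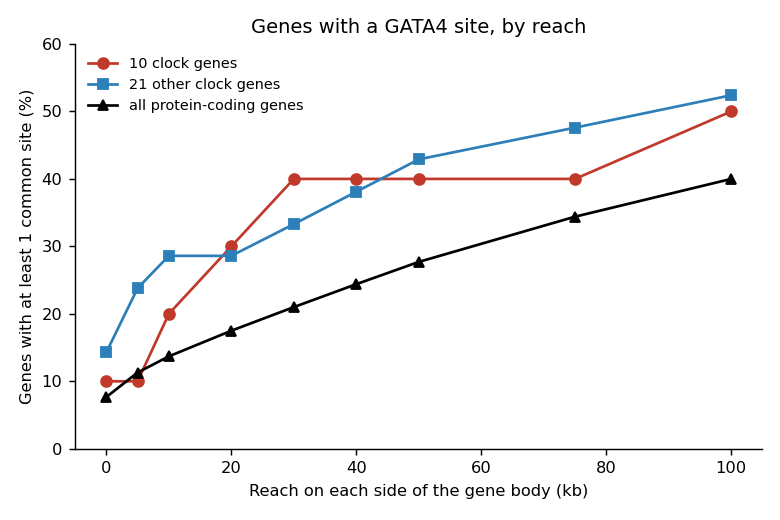
Percentage of genes with at least 1 common site (y axis) against the reach on each side of the gene body in kb (x axis), for the 10 clock genes, 21 other clock-related genes and all protein-coding genes. The clock genes go from 10% at 0 kb to 40% at 50 kb, and all protein-coding genes from 7.67% to 27.7%.

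None of the 3 genes of the positive arm had a common site, beside 27.7% of protein-coding genes with one. With only 3 genes, this count lies within 1 gene of that share and does not set the arm apart. Arntl encodes the shared partner of the activating pair, Clock and Npas2 its alternative partners. The nearest common sites lay 489.6 kb from Arntl, 164.2 kb from Clock and 350.9 kb from Npas2. The median over all protein-coding genes, those with a site included, was 157.2 kb (quartiles 41.5 and 476.6 kb). The median over all 10 clock genes was 126.6 kb. A gene without a site within reach is more than 50 kb from one by the rule. These distances therefore restate the missing sites and add no separate evidence. MACS2 alone called 1 peak in the body of Arntl and 1 in that of Npas2, which are described with the other MACS2 peaks, and Clock had no peak in any list.

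Of the negative arm, Per1 and Per2 had common sites, and Per3, Cry1 and Cry2 had none. The share over all protein-coding genes was 27.7%. With so few genes, the counts do not set this arm apart from that share or from the positive arm. Per1 and Per2 encode PERIOD repressors whose transcripts follow the activating pair. Per2 had a site of 308 bp at chr1:93342665-93342972, in intron 4 of 22 and 13089 bp downstream of the transcription start. No transcription start lay nearer than one of Per2 itself, at 13087 bp. The other protein-coding genes within 50 kb were Hes6, Ilkap and Traf3ip1, each more than 32 kb away at the nearest edge, and the next common site was 94371 bp away. It held 1 WGATAR match, 9 bp from the midpoint. The sequence is given because this was the sole common site inside a clock gene; capitals mark WGATAR, which stands here on the minus strand and so reads TTATCT. 300 bases around the midpoint, mm9, plus strand:
Per2 chr1:93342668-93342967: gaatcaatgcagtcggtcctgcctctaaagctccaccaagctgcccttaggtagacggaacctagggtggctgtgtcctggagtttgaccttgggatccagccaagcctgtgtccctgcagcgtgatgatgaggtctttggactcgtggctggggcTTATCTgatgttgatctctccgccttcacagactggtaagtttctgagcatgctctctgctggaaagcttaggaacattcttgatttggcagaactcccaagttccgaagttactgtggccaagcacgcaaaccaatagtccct

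Per1 had both of its sites far upstream, in a dense stretch of chromosome 11. The outer one, of 320 bp at chr11:68873065-68873384, lay 35495 bp before the Per1 transcription start. Its midpoint was 53 bp upstream of the start of 2310047M10Rik and in exon 1 of 9330160F10Rik, with a GC content of 67.8%, above the upper quartile of 54.1% over all common sites. The inner one, of 122 bp at chr11:68881277-68881398, lay 27382 bp before the Per1 start and 2971 bp before that of Tmem107, a gene for a protein of the primary cilium. The sites were 8113 bp apart, and 8 and 7 protein-coding genes, Per1 included, lay within 50 kb of them. Among these neighbours were Aurkb, a mitotic kinase, and Vamp2, a vesicle fusion protein, both nearer than Per1. The rule thus placed these sites at Per1 by distance alone.

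The outer site held 1 WGATAR match, 29 bp before the midpoint. The inner site held none between its borders, although 1 match crossed its edge with 2 bases inside, and the 300 bases around it held 2 matches and 1 forkhead word (TGTTTAC or TGTTTGC). Both are printed to show where the matches fall, with WGATAR in capitals. 300 bases around each midpoint, mm9, plus strand, the outer site first:
Per1 chr11:68873074-68873373: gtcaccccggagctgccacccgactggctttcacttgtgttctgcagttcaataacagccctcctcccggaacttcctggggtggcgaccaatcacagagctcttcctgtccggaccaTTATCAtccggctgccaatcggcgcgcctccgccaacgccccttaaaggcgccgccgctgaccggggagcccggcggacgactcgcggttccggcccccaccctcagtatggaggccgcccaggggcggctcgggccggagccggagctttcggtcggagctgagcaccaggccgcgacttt
Per1 chr11:68881187-68881486: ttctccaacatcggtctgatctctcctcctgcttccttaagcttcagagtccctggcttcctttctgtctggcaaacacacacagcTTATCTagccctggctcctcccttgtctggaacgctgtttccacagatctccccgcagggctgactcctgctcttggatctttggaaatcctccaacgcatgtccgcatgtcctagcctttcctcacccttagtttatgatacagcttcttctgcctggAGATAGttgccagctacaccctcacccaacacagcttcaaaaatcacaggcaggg

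Per3, the remaining PERIOD gene, had no peak in any list within 50 kb. Cry1 and Cry2 encode the cryptochromes, which repress the activating pair, and had their nearest common sites at 320.4 and 308.3 kb. Both had MACS2 peaks.

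Nr1d1, the repressor of Arntl in the second loop, had a site of 236 bp at chr11:98644529-98644764, 7999 bp upstream of its transcription start. This start was the nearest of any transcript. Msl1, which encodes a subunit of a histone acetyltransferase complex, started 12184 bp away and Casc3 21573 bp away, and the nearest edge of Thra, the thyroid hormone receptor gene beside Nr1d1, was 14326 bp away. The next common site was 171163 bp off. The MACS2 peak over this site was 1657 bp wide (chr11:98644042-98645698), and only 61 of the 5867 MACS2 peaks, 1.04%, were as wide or wider. It held 4 WGATAR matches, of which 1 lay in the common site, 25 bp before its midpoint. None lay in the 300 bp around the midpoint of the MACS2 peak. A wide peak offers more room for matches, and no share at this width was computed. The whole common site is printed because it was the site with a clock gene as nearest gene outside a gene body; capitals mark WGATAR on the plus strand of mm9:
Nr1d1 chr11:98644529-98644764: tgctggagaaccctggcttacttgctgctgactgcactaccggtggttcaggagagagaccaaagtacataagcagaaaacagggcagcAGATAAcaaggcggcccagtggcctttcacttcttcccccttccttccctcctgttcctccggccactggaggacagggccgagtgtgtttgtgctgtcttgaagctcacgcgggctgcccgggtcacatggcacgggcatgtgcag

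Dbp, the D-box activator that is itself a target of the clock, had a site of 320 bp at chr7:52947746-52948065, 12553 bp upstream of its start. The midpoint lay in intron 1 of Sec1 and intron 5 of Ntn5, and the nearest start was that of Sec1, 1867 bp away. Of the common sites 4.17% had 7 or more protein-coding genes within 50 kb, and this one had 11. Car11 and Ntn5 started nearer than Dbp. It held 1 WGATAR match, 3 bp before the midpoint, and 1 copy of AGGTCA, the core word of the ROR and REV-ERB receptors. WGATAR is in capitals, 300 bases around the midpoint, mm9, plus strand:
Dbp chr7:52947755-52948054: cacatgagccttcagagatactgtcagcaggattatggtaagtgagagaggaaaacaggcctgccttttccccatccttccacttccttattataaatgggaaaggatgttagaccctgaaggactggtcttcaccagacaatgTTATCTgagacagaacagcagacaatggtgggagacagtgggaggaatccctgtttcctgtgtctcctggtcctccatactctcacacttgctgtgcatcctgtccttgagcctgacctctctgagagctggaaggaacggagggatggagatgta

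Of the 5 sites, those at Per2 and Nr1d1 had a clock gene as the owner of the nearest transcription start, and those at Per1 and Dbp had not. The same division held for the position in the peak lists. The deposited score was 1000 for every peak, and the peaks are numbered in line order, whose basis the files do not state. Per2 was number 114 and Nr1d1 number 371 in the common list, the first 2.6% and 8.4%, while Dbp and the Per1 sites were numbers 3860, 3871 and 4032, at 87.5% to 91.4%. The overlapping MACS2 peaks were numbers 96 and 160 for Per2 and Nr1d1, 3623 and 4231 for Per1, and 5782 of 5867 for Dbp. With the common list kept only to its middle line, 2 of the 10 clock genes had a site, beside 16% of protein-coding genes. Sites late in the list were often of a single width: 320 bp was the width of 25.6% of all common sites and of 68.3% of the 609 numbered above 3800, and it was that of the Dbp site and the outer Per1 site.

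**Figure D3:**
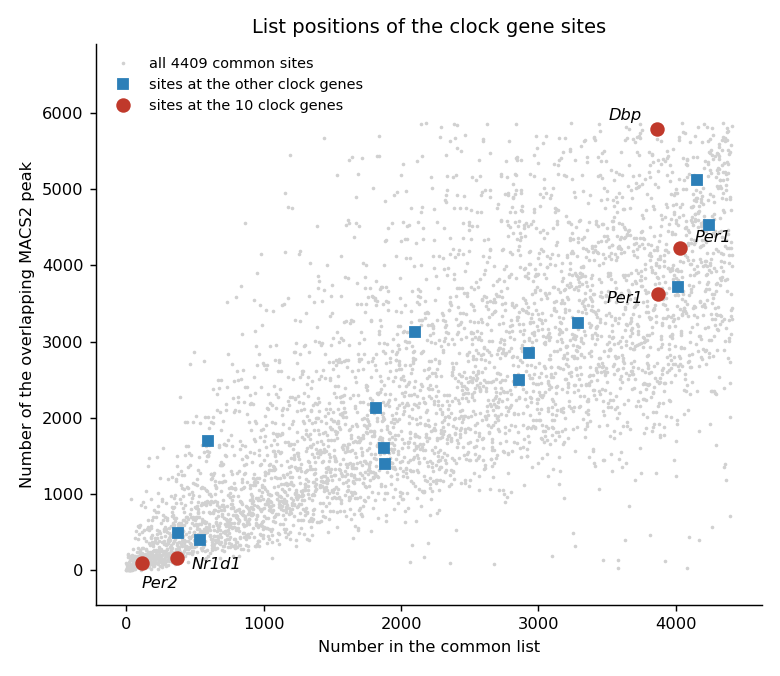
Number of a common site in the common list (x axis) against the number of the overlapping MACS2 peak (y axis), with all 4409 common sites in grey, the 5 sites of the clock genes in red and the 13 sites of the other clock-related genes in blue. Per2 and Nr1d1 sit at the start of both lists, and Dbp and both Per1 sites beyond number 3800 of the common list.

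WGATAR was found, on either strand, between the borders of 4 of the 5 sites, beside 82.9% of all common sites. None of the 5 held 2 or more matches, beside 34.7% of all. The matches lay 3 to 29 bp from the midpoint, and the median over all common sites for the nearest match was 18 bp. In windows of 300 bp around the midpoint all 5 sites held a match, beside 86.8% of all. 

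**Figure D4:**
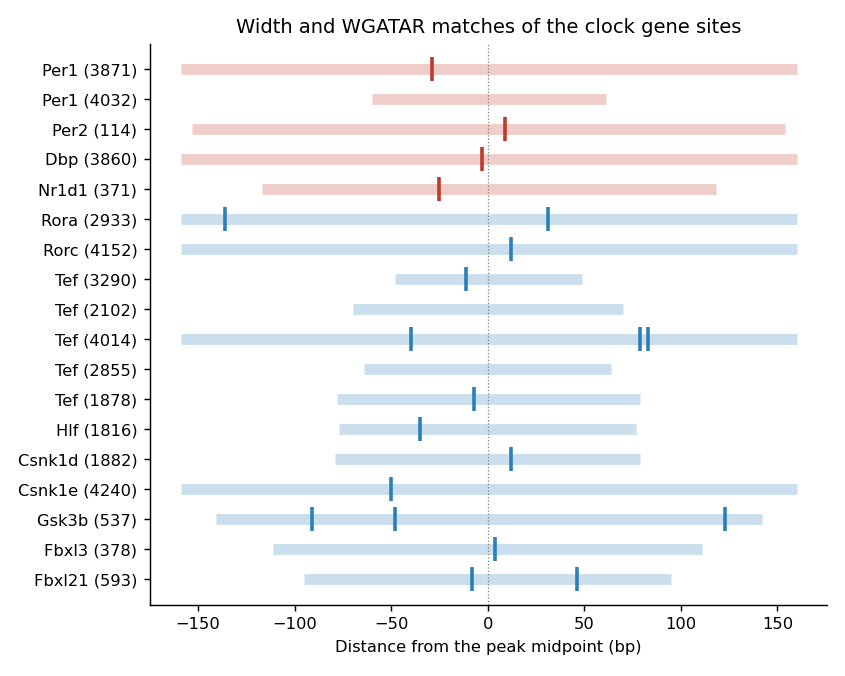
Width of each site (bars) and position of WGATAR matches (marks), with the distance from the peak midpoint in bp on the x axis. The 5 sites of the clock genes are in red and the 13 sites of the other clock-related genes in blue. The sites at Per1 (outer), Per2, Dbp and Nr1d1 each have 1 match within 29 bp of the midpoint, and the inner Per1 site has none between its borders.

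Words read by clock and forkhead factors were searched in the same windows, and with 5 windows their counts lay within about 1 window of the shares over all common sites. The E-box CACGTG, read by the ARNTL pair, was in none of the 5 windows of 300 bp, beside 5.35% of all common sites, and the variant CACGTT was in none, beside 5.31%. The D-box words TTATGTAA and TTATGCAA were in none, beside 2.7%. AGGTCA was in 2 of 5 (Per2 and Dbp), beside 31.3%, and a forkhead word was in 1 of 5 (the inner Per1 site), beside 16.4%. All words were matched exactly on both strands, and no word contains another. A missing word says only that these letters are not in this window.

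MACS2 used alone gave a different count. Its list placed 11 peaks within reach of 8 of the 10 clock genes (80%), beside 33.9% of all protein-coding genes, or 3.4 of 10 genes, and 38.3% of those in the range of lengths of the clock genes. Of the 11 peaks, 5 were those over the common sites and 6 had no common site. Arntl, Npas2, Cry1 and Cry2 had a MACS2 peak but no common site, 4 of 10 genes beside 6.18% of protein-coding genes. These 4 genes are 30.4 to 169.5 kb long, against a median of 15.4 kb over all protein-coding genes. The 6.18% is not limited to genes of similar length, and long genes offer more room. The SPP list gave the same 5 peaks as the common list and no others.

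These 6 peaks mostly stood late in the MACS2 list. The Cry2 and Per1 peaks in gene bodies were numbers 3541 and 3907, at 60.4% and 66.6% of the list, and the other 4 were at 90.3% to 98.1%. In Arntl the peak, of 781 bp at chr7:120383975-120384755, lay in intron 2 of 19, 33386 bp from the start. In Npas2 it was 433 bp wide, at chr1:39341587-39342019 in intron 2 of 20, 91227 bp from the start. In Per1 it lay at chr11:68910383-68910915, in intron 1 of 17, 1930 bp downstream of the start and 1801 bp before another Per1 start. Upstream of Cry1 it was 632 bp wide, at chr10:84667310-84667941, 19826 bp before the start. These 4 therefore lay in or next to a clock gene with no other protein-coding start nearer, except in Npas2, where the start of Rpl31 was 82893 bp away.

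Cry2 had 2 of the 6. One of them, of 754 bp at chr2:92263585-92264338, lay in intron 3 of 11, 10239 bp downstream of the start. The other, of 1174 bp at chr2:92194235-92195408, lay 49.0 kb past the end of Cry2 in intron 12 of Phf21a, just inside the limit of 50 kb. All 6 peaks held WGATAR somewhere between their borders, as did 90.3% of all MACS2 peaks, which are wider than the common sites (median 618 bp against 190 bp). In the 300 bp around the midpoint 4 of the 6 held it, beside 66.6% of the 1496 MACS2 peaks without a common site.

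The intronic Cry2 peak was the one clock gene peak whose window held both CACGTG and a D-box word. Its 300 central bases held 1 WGATAR match, 2 copies of CACGTG and 1 D-box word. Over all MACS2 windows CACGTG was found in 5.51% and a D-box word in 2.13%, and over the 11 of the clock genes in 2 and 1. The other CACGTG window was that of the wide Nr1d1 peak. These 300 bases and the WGATAR matches of the Arntl, Npas2, Per1 and Cry1 peaks are printed for these words, which stand in capitals, on the plus strand of mm9. The Cry2 window comes first, then each match, or pair of neighbouring matches, with 20 bases on each side:
Cry2 chr2:92263811-92264110: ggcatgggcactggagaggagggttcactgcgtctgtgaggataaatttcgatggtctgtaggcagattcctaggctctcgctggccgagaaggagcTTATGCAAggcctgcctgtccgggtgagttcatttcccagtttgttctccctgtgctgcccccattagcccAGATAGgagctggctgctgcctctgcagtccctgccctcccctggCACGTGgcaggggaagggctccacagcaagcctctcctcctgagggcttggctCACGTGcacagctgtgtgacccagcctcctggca
Arntl chr7:120384150-120384195: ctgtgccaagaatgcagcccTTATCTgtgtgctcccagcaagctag
Arntl chr7:120384392-120384437: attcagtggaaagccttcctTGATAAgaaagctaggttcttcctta
Npas2 chr1:39341838-39341883: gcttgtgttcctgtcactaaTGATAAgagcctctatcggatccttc
Per1 chr11:68910833-68910878: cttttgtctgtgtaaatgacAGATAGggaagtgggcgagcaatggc
Cry1 chr10:84667643-84667698: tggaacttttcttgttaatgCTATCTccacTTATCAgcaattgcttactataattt

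Beyond the 10 genes, 21 other genes of the clock pathway were examined. Of these, 9 (42.9%) had a common site within 50 kb, with 13 sites in all, and 10 (47.6%) had a MACS2 peak, beside 27.7% and 33.9% of all protein-coding genes. At 10 kb the share was 28.6%, beside 20% for the 10 clock genes and 13.7% for all protein-coding genes. The 21 genes include long ones, such as Rora at 734.5 kb, against a median of 15.4 kb over all protein-coding genes. Long genes offer more room, and no share limited to the range of lengths of the 21 genes was computed. WGATAR was in 11 of the 13 sites, beside 82.9% of all common sites. Of the 13, 6 had the clock gene as owner of the nearest protein-coding start, a count without a share over all sites beside it. Sites were at 2 of 4 nuclear receptors, 2 of 3 D-box factors, 3 of 3 kinases and 2 of 5 genes of the ubiquitin system. The 5 other repressors and Arntl2, the paralog of Arntl, had none. No class held more than 5 genes. These counts are too small to set a class apart from another or from the share of 27.7%, and this was not tested.

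The D-box factors Tef and Hlf, which with Dbp of the 10 clock genes form the PAR bZIP activators, had a common site. Nfil3, the repressor of the same D-boxes, had none. The share over all protein-coding genes was 27.7%. With 3 activators and 1 repressor, the counts are too small to set these groups apart, and the difference was not tested. The site of Dbp also lay nearer to the start of Sec1 than to that of Dbp. Tef had 5 sites within reach, the most of any clock gene examined. One lay in exon 1, its midpoint 94 bp after the start (number 3290), and one in intron 1, 3435 bp after it (number 2102). Another lay 8.8 kb past its end (number 4014), and a further one lay 39 bp from the start of Tob2 (number 2855). Hlf had 1 site, number 1816, in intron 3 of 4. The Tef exon 1 site and the Hlf site were the only 2 of the 13 with CACGTG in the 300 bp around the midpoint. Over all common sites the share was 5.35%. With 13 windows, a count of 2 is too small to set these genes apart, and it was not tested. Both whole peaks are printed to show WGATAR and CACGTG, in capitals, side by side, mm9, plus strand:
Tef chr15:81632897-81632994: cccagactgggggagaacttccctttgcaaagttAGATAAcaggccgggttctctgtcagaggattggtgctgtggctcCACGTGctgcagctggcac
Hlf chr11:90225221-90225375: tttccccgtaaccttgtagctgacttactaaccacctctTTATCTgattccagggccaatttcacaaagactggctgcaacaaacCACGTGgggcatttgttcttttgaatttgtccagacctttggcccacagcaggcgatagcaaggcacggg

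Among the receptors that share the AGGTCA core with NR1D1, Rora had a site in intron 1. It lay 160571 bp after the start of this gene of 734.5 kb. Nr1d2, the paralog of Nr1d1, and Rorb had their nearest common sites at 1356.5 and 1154.5 kb. Of the kinases that phosphorylate PERIOD and other clock proteins, Csnk1d had a site 598 bp before its start. The site assigned to Csnk1e lay in intron 1 of Tmem184b and that of Gsk3b in intron 1 of Nr1i2, the gene of the xenobiotic receptor PXR, 41.9 kb past the end of Gsk3b. In the ubiquitin system, the site of Fbxl21 was nearest to Lect2, a gene for a protein secreted by the liver. SPP alone called peaks at the repressor genes Bhlhe40, Cipc and Timeless. No peak of any list was found at 8 of the 21 genes and at 2 of the 10 clock genes, Clock and Per3. Over all protein-coding genes, 33.9% had a MACS2 peak within 50 kb and 29.2% an SPP peak. The share without a peak in any list was not computed, so these 2 counts cannot be called high or low.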

How the data were processed

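GATA4 ChIP-seq of whole mouse liver was analysed from the deposited peak lists. Per the labels, reads were aligned to mm9 with Bowtie 0.12.7 and peaks were called with MACS2 2.0.10, and bedtools 2.16.1 was used. By the study's methods, uniquely placed reads were kept, a modified SPP was the other caller, thresholds were set by irreproducible discovery rate over both replicates and the merged reads, input was the control, and the common list keeps SPP coordinates of SPP peaks that overlap a MACS2 peak. The deposited score is 1000 for every peak, so line number was used in its place. The read totals of the libraries are stated by the study and were not used here; the lists give no read count or height for a single peak.

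From the lists, distances, counts and exact word matches were computed with python 3.11.15, numpy 2.4.6 and pysam 0.24.0 on the mm9 reference and GENCODE M1 (37310 genes, 22380 protein-coding), both of the same build. Gene spans covered all transcripts. Peaks overlapped if they shared at least 1 bp. Coordinates are 1-based. The scripts were checked on planted peaks and words. The genes and lists were chosen with earlier results of these data known. All 10 genes, their peaks, the nearest neighbours and the other clock genes with a site are named, except some items that are not reported here; Bhlhe40, Cipc, Timeless, Nfil3, Nr1d2, Rorb and Arntl2 were named after their values were seen. The comparison with genes of the same range of length was added after the files were seen. Input reads and the paper's expression arrays were not analysed here.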

Additional observations from a re-analysis of the deposited data

How the results depend on the processing

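Of 43 other settings tried, 24 left the count or share within 1.5 times its value and 19 moved it. The 4 clock genes with a site became 2 at a reach of 10 kb, 1 at 5 kb, 1 in the gene body, 2 in the front portion of the list up to its middle line and 8 in the MACS2 list, and their 5 sites became 2, 1, 1, 2 and 11 in the same order and 8 at a reach of 100 kb. The share of protein-coding genes fell from 27.7% to 13.7% at 10 kb, 11.3% at 5 kb, 7.67% in the body and 16% with the front portion. The 9 other clock genes with a site became 5 at 5 kb and 3 in the body. WGATAR was in 4 of the 5 sites and in 1 of 5 regions as wide as the sites but moved 5000 bp rightwards. The sites with a clock gene as owner of the nearest start were 2 of 5 in the common list and 6 of 11 in the MACS2 list. The number of peaks thus differed as well, and no share over all sites is given for this count. The SPP list, peak overlap in place of the midpoint, and the longest protein-coding transcript moved none of the counts they were tried on by more than 1.5 times. A shorter reach or part of a list can only remove sites; for MACS2 the cause was not tested. No paired analysis was possible because the labels list 1 ChIP sample and its lists do not separate replicates, and for the same reason no replicate could be left out. The lists give no read count or height at single sites, so a gene without a site may hold one below the callers' thresholds.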
